A study of Mus musculus with 6 samples.

Results

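The genes described here are the La protein gene Ssb and the La-related protein genes Larp1, Larp1b, Larp4, Larp4b, Larp6 and Larp7, 7 of the 19938 genes measured. They are a gene family selected on the differences between pulldown and input in this same comparison, in which Larp1 was among the largest positive ones. Their differences are therefore given as a description, without p-values. RNA was measured on 6 arrays from a mouse podocyte line: 3 of RNA co-precipitated with an antibody against the RNA-binding protein Staufen2, and 3 of total input RNA. Podocytes are the epithelial cells that wrap the capillaries of the kidney glomerulus. The cells of both groups were immortalized, propagated at a permissive temperature with gamma-interferon and differentiated by a shift to a non-permissive temperature without it, and both RNAs came from cells lysed in a buffer for cytoplasmic extraction. For each array 100 ng of RNA was amplified and labelled, so the arrays show composition, not yield, and a larger share of one RNA cannot be told apart from a smaller share of the others.

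La and the La-related proteins (LARPs) share the La motif, a fold that lies next to an RNA recognition motif and together with it binds RNA. La itself holds the uridine-rich 3′ ends of new RNA polymerase III transcripts and protects them, and Larp7 does so in a lasting way for 7SK, the noncoding RNA that keeps the elongation kinase P-TEFb inactive. The other members act mainly on mRNA in the cytoplasm. Larp1 binds the cap and the terminal oligopyrimidine (TOP) tract at the 5′ end of mRNAs of the translation machinery and acts downstream of mTORC1, Larp4 and Larp4b associate with poly(A)-binding protein, and Larp6 binds a stem-loop in type I collagen mRNAs.

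Levels are log2 values of a gene's brightest probe set, and each difference is the pulldown mean less the input mean, on the same scale, with its standard error (SE) from limma's linear model. Calls were made at an adjusted p (Benjamini-Hochberg, over all genes) under 0.05. Array medians lay between 6.53 and 6.54. Arrays of 1 group correlated at 0.998 to 0.999 and arrays of different groups at 0.982 to 0.983 (Pearson, all probe sets), and no array stood apart from its group. Of 19938 genes 48.7% were called, 31.3% as higher and 17.3% as lower in the pulldown. Among the calls, 64.4% were higher ones, and 52.9% after cyclic loess normalization. The labels do not say that replicates came from separate cultures, so the spread between them may be technical. Of 12 measured podocyte markers 7 lay above the median of all values (6.54) in the input, among them Wt1, Synpo and Cd2ap, while Nphs1 (nephrin), Podxl, Ptpro, Plce1 and Tcf21 did not. Also above the median in the input were 6 of 8 tubular or parietal markers, with Pax8 at 11.4, 2 of 5 mesangial or fibroblast markers, with Acta2 at 13.6, 2 of 5 immune and 1 of 5 endothelial markers. A control-antibody pulldown was not analysed here, so these values describe recovery relative to input and not binding to Staufen2.

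All 7 family mRNAs lay above the median of all values in both groups and had positive differences, from 0.14 for Larp6 to 1.62 for Larp1. The median was 0.51, against 0.04 over all genes. In the fit over all genes 6 members were called higher, 0 were called lower, and Larp6 was not past the threshold, beside 31.3% of all genes called higher. Calls were more frequent among genes above the median of all values in either group. In a fit of these 12162 genes 5754 were higher and 3382 lower, with a median difference of 0.09, and again 6 members were called higher. For 6 members every pulldown array lay above every input array, which was the case for 36.4% of all genes (55.9% did not overlap in either direction). Larp1, Larp4, Larp4b and Larp1b had the larger differences, and Larp7, Ssb and Larp6 the smaller ones.

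**Figure D1:**
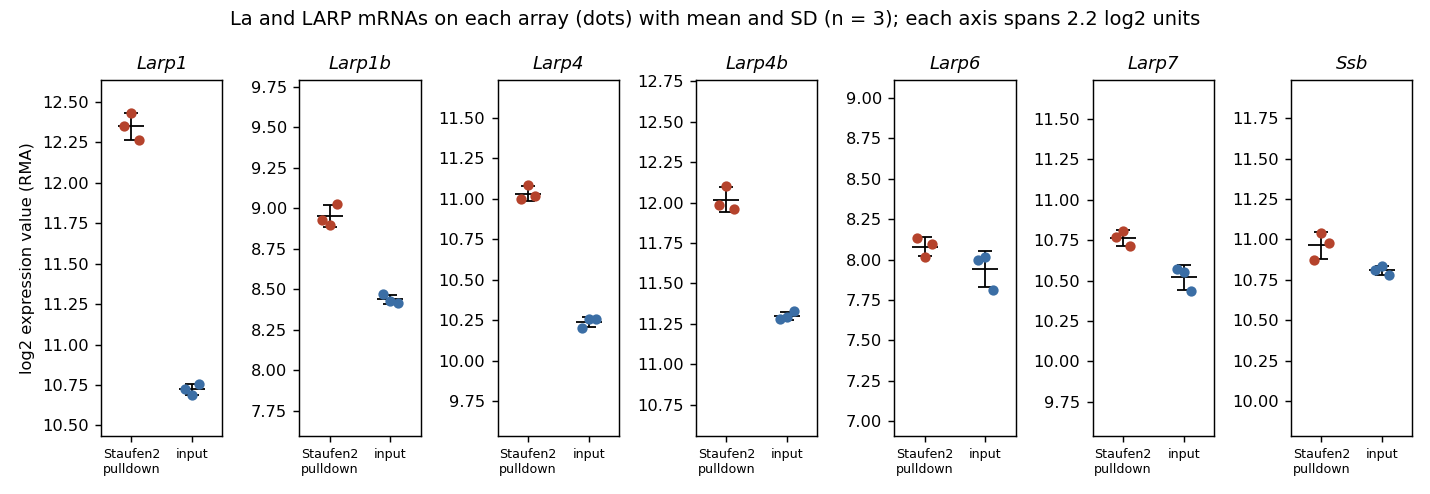
Log2 expression value of each family mRNA on the 3 pulldown arrays (red, left) and the 3 input arrays (blue, right), with the mean and SD in black. All panels have the same height in log2 units, so distances can be compared between panels but levels cannot. The gap is widest for Larp1, and for Larp6 the lowest pulldown value meets the highest input value.

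Larp1, the TOP mRNA-binding protein, stood at 12.35, 12.43 and 12.27 on the pulldown arrays, against 10.72, 10.69 and 10.76 on the input arrays. The groups did not overlap, with the lowest pulldown value 1.51 above the highest input value, and SDs were 0.082 in the pulldown and 0.034 in the input (n = 3 each). The difference of 1.62 ± 0.045 (SE) corresponds to 3.08-fold and ranked 5 among all 19938 genes. This size and rank depend on the probe set, since the gene's other probe set gave 1.12. Larp1b, the paralog of Larp1 that shares its cap-binding DM15 region, stood at 8.93, 8.90 and 9.03 in the pulldown and at 8.47, 8.43 and 8.41 in the input. Its groups did not overlap either, but the difference was much smaller, at 0.51 ± 0.040, or 1.43-fold, and ranked 2147.

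Larp4 and Larp4b are close paralogs that bind poly(A)-binding protein and stabilise mRNAs. Larp4 stood at 10.995, 11.08 and 11.02 in the pulldown and at 10.20, 10.26 and 10.26 in the input, a difference of 0.79 ± 0.035 (1.73-fold, rank 800). Larp4b stood at 11.98, 12.10 and 11.96 in the pulldown and at 11.28, 11.30 and 11.33 in the input, a difference of 0.72 ± 0.043 (1.64-fold, rank 1093). In both genes every pulldown array lay above every input array, by at least 0.74 for Larp4 and 0.63 for Larp4b.

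Larp6, which binds collagen mRNAs, had the smallest difference and was the dimmest member. Its values were 8.13, 8.02 and 8.09 in the pulldown and 7.9997, 8.02 and 7.81 in the input. The second pulldown array and the second input array held the same deposited value, so the groups touch, and the input array at 7.81 lay apart from the others. The difference was 0.14 ± 0.060, and 0.07 without that array.

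The members known mainly from the nucleus also had small differences. Larp7, the stabiliser of 7SK RNA, stood at 10.77, 10.81 and 10.71 in the pulldown and at 10.57, 10.55 and 10.43 in the input, a difference of 0.24 ± 0.046 (1.18-fold, rank 4366). Ssb, the La protein, stood at 10.88, 11.04 and 10.98 in the pulldown and at 10.81, 10.84 and 10.78 in the input, a difference of 0.16 ± 0.045 (1.11-fold, rank 5603). The Ssb groups were separated by only 0.038, less than the SD of its pulldown values (0.084). After cyclic loess its difference was 0.05 and no longer called, and the call was also lost when any 1 of 4 arrays was left out.

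In order of size the differences ran Larp1, Larp4, Larp4b, Larp1b, Larp7, Ssb and Larp6. Since Larp1 was singled out for the size of its difference in this comparison, its gap of 0.83 to Larp4 is given as a description only. Larp4b and Larp1b were 0.20 apart (combined SE 0.058), and Larp1b and Larp7 were 0.27 apart (combined SE 0.061). The gaps between Larp4 and Larp4b (0.078, combined SE 0.055), between Larp7 and Ssb (0.088, combined SE 0.064) and between Ssb and Larp6 (0.018, combined SE 0.076) were under 2 combined SEs, so their order is not settled. The combined SE treats the genes as independent, although they were read on the same arrays. It also leaves out the spread between probe sets of a gene. The order of the remaining members is therefore a description too. The second pulldown array was the highest of the 3 for 5 members, all but Larp1b and Larp6, and for 28.9% of all genes.

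The array carried 12 probe sets for the 7 genes, and 4 genes had more than 1. All 12 had positive differences, and in 11 the groups did not overlap. The values below come from a fit over all probe sets. For Larp1 the second probe set stood at 11.95, 11.98 and 11.91 in the pulldown and at 10.81, 10.81 and 10.87 in the input, a difference of 1.12 ± 0.033 (2.17-fold), against 1.62 ± 0.048 for the brightest. The groups did not overlap in either probe set, but the differences were not of the same size. In the input the second probe set was the brighter (mean 10.83 against 10.72). The other was brightest over 6 arrays only through its pulldown values, so this choice favoured the larger difference. For Larp4 the other probe sets gave 0.40 ± 0.048 and 0.36 ± 0.064, lower than the 0.79 ± 0.035 of the brightest. The first of them stood at 10.53, 10.62 and 10.46 in the pulldown and at 10.08, 10.17 and 10.15 in the input, and the other, at 8.68, 8.83 and 8.70 in the pulldown and 8.34, 8.49 and 8.31 in the input, was the dimmest of the 3. The groups did not overlap in any of the 3 Larp4 probe sets. Which transcripts or parts of the gene each probe set reads is not given in the sources used here.

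**Figure D2:**
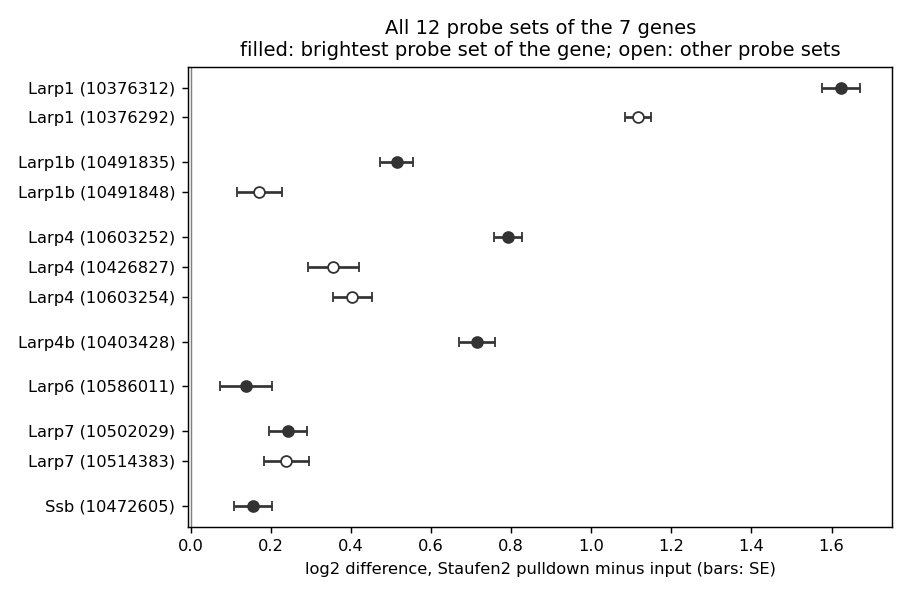
Log2 difference, pulldown minus input, of each of the 12 probe sets, with the SE as bars. Filled points are the brightest probe set of each gene, which represents it in the text, and open points are the others. For Larp1, Larp1b and Larp4 the open points lie left of the filled one, whereas for Larp7 they coincide.

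The 2 probe sets of Larp7 agreed within their errors, at 0.24 ± 0.048 and 0.24 ± 0.055. The dimmer one stood at 9.21, 9.35 and 9.16 in the pulldown and at 9.03, 9.01 and 8.96 in the input, so its groups were separated as well. The second probe set of Larp1b gave 0.17 ± 0.056 and was not called, but at 5.18 in the pulldown and 5.01 in the input it lay below the median of all values, where signal can be background. When all probe sets of a gene were averaged, the differences were 1.37 for Larp1, 0.52 for Larp4, 0.34 for Larp1b and 0.24 for Larp7, so Larp1 kept the largest difference and Larp4b (0.72) stood above Larp4.

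**Figure D3:**
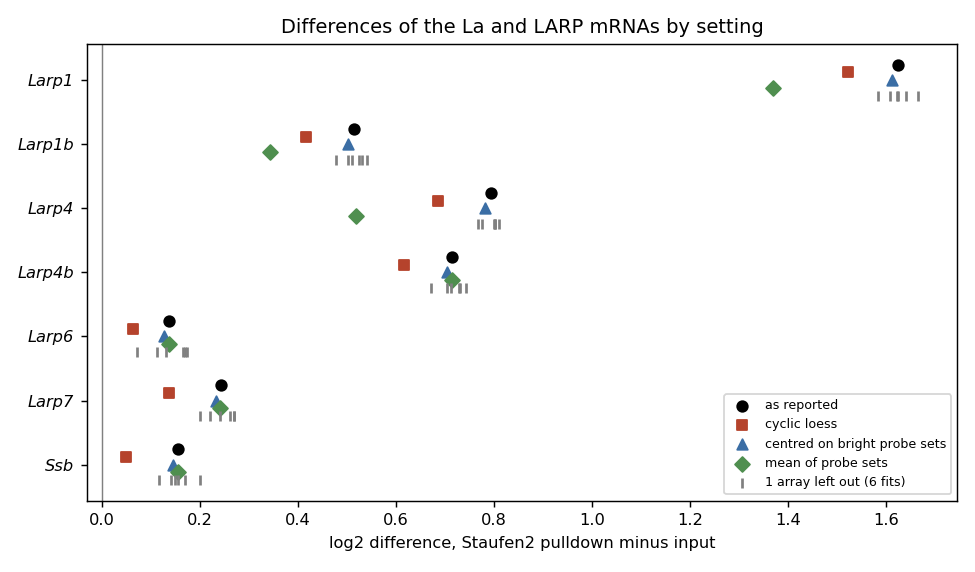
Log2 difference of each family mRNA as reported (black circles), after cyclic loess (red squares), after centring on bright probe sets (blue triangles), with all probe sets of a gene averaged (green diamonds) and with each array left out (grey ticks). All values are positive, and after cyclic loess they lie 0.07 to 0.11 lower than as reported.

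By the root mean square distance between log2 values centred on each gene's mean, over the 6 arrays, the 5 genes most like Larp1 were Cep350 (distance 0.033), Kmt2c (0.048), Zfhx4 (0.062), Sh3pxd2a (0.066) and Kmt2a (0.067). Their differences lay between 1.56 and 1.65. The nearest genes were Mier2 and Ddx5 for Larp1b, Rbl2 and Zfp148 for Larp4, Atf7ip and Emsy for Larp4b, Chek1 and Eppin for Larp6, H2bc21 and Ppid for Larp7, and Cacng2 and Cacybp for Ssb, at distances of 0.011 to 0.022. Eppin and H2bc21 lay below the median of all values. These genes were read on the same arrays under the same scaling, so likeness is a description of these 6 arrays only.

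Genes that work with the family were then read by lists. Nearly all listed genes lay above the median of all values in either group. In the fit of the 12162 such genes 75.1% were called, 5754 as higher and 3382 as lower. The shares of all genes given beside the lists are therefore a low background. The lists were written with earlier results of these data known, and genes with the smallest adjusted p were named first. Adjusted p-values printed for them therefore describe these arrays and are no independent support. TOP mRNAs, the known ligands of Larp1, went the other way from Larp1's own mRNA. Of 65 measured, 62 were lower in the pulldown, 2 were higher and 1 did not pass, beside 17.3% of all genes lower and 31.3% higher, with a median of -0.93. Rps7 stood at 10.73 ± 0.056 in the pulldown and 12.56 ± 0.044 in the input (SD, n = 3), a difference of -1.83 ± 0.039 (limma adjusted p = 1.9e-07), and Rps4x had a difference of -1.32 ± 0.028 (limma adjusted p = 1.9e-07). Rps12 had -2.74 ± 0.047 (limma adjusted p = 1.8e-07). Its introns hold small nucleolar RNAs, and whether its probe set reads them was not tested, so the size of its difference is uncertain. The 2 higher members were Pabpc1 at 0.18 ± 0.029, the cytoplasmic poly(A)-binding protein, and the initiation factor Eif4b at 0.12 ± 0.032. After cyclic loess 1 was higher and 62 were lower.

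**Figure D4:**
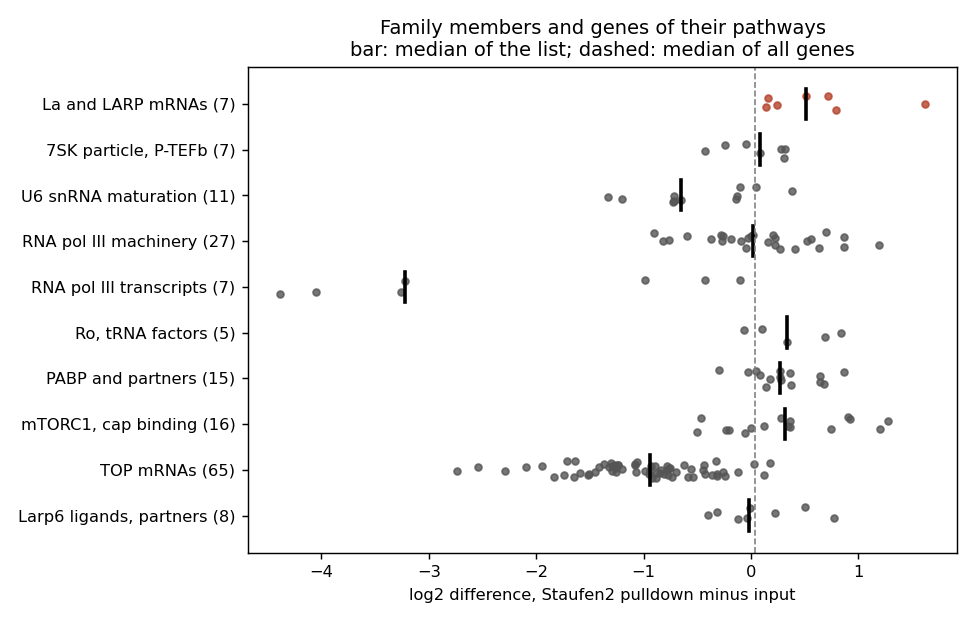
Log2 differences, pulldown minus input, of the family mRNAs (red) and of the genes in each pathway list (grey, number measured in brackets), with the list's median as a bar and the median of all genes as a dashed line. Most TOP mRNAs and all measured RNA polymerase III transcripts lie left of the line. The family mRNAs lie right of it, as do the TOP mRNAs Pabpc1 and Eif4b.

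mTORC1, the kinase complex upstream of Larp1, and the cap-binding proteins gave 10 of 16 higher, 4 lower and 2 not past the test, with a median of 0.31. Over all genes 31.3% were higher and 17.3% lower. After cyclic loess 9 were higher and 6 lower, with a median of 0.20, beside 25.7% and 22.9% of all genes. Rptor, the subunit that recruits substrates to mTORC1, stood at 10.5 in the pulldown and 9.26 in the input, higher by 1.28 ± 0.054 (limma adjusted p = 1.0e-06). Deptor, an inhibitor of mTOR, was higher by 1.20 ± 0.054 (limma adjusted p = 1.3e-06), and Tsc1, part of the complex that restrains mTORC1, by 0.90 ± 0.036 (limma adjusted p = 8.0e-07). The kinase Mtor itself was higher by 0.93 ± 0.043. The small GTPase Rheb, which activates mTORC1, was lower, at -0.51 ± 0.054, as was the translational repressor Eif4ebp1 at -0.23 ± 0.031. Eif4ebp2, the paralog of Eif4ebp1, was higher by 0.36 ± 0.053. The TOP-binding proteins Tia1 and Tial1 were higher by 0.35 ± 0.049 and 0.28 ± 0.034.

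Poly(A)-binding protein and its partners, among which Larp4 and Larp4b act, gave 10 of 15 higher, 1 lower and 4 not past, beside 31.3% and 17.3% of all genes, with a median of 0.27. The scaffold Eif4g3 was higher by 0.86 ± 0.029 (limma adjusted p = 4.7e-07), the deadenylase subunit Pan3 by 0.65 ± 0.028 (limma adjusted p = 1.1e-06) and the deubiquitinase Usp10 by 0.68 ± 0.038 (limma adjusted p = 3.6e-06). The lower member was Paip2, an inhibitor of poly(A)-binding protein, at -0.30 ± 0.027, while its paralog Paip2b was higher by 0.27 ± 0.045.

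Known RNA ligands and protein partners of Larp6 gave 3 of 8 higher, 3 lower and 2 not past, with a median of -0.02. The share of higher members is near the 31.3% of all genes called higher, and 17.3% of all genes were called lower. The nonmuscle myosin Myh10 was higher by 0.78 ± 0.027 (limma adjusted p = 4.9e-07), the helicase Dhx9 by 0.51 ± 0.036 (limma adjusted p = 1.2e-05) and Strap by 0.23 ± 0.026. Fkbp3, listed with the partners, was lower, at -0.31 ± 0.037. The type I collagen mRNAs, the ligands for which Larp6 is known, were lower as well. Col1a1 stood at 10.5 ± 0.10 in the pulldown and 10.9 ± 0.021 in the input (SD, n = 3), a difference of -0.40 ± 0.052 (limma adjusted p = 0.00037). Col1a2 had -0.12 ± 0.040 (limma adjusted p = 0.040), a call near the threshold, and Col3a1 did not pass, at -0.01 ± 0.035. The list's lower calls numbered 2 with an intensity trend and 2 to 3 with an array left out. After cyclic loess they numbered 4, and Col1a2 stood at -0.19.

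RNA polymerase III transcripts, the ligands of La, were the most strongly lower of these lists. Of 7 on the array, 6 were lower, 0 higher and 1, Rnu6, not past, beside 17.3% of all genes lower and 31.3% higher, with a median of -3.22. Rnu6 stood at 4.27 in the pulldown and 4.37 in the input, below the median of all values in both groups, so nothing can be read from it. The RNase P RNA Rpph1 had a difference of -3.22 ± 0.044 and the RNase MRP RNA Rmrp -3.26 ± 0.069. The Y RNA Rny1 (-4.05 ± 0.039) and the vault RNA Vaultrc5 (-4.38 ± 0.099) fell to 5.39 and 5.80 in the pulldown, below the median of all values, so these sizes are uncertain. Rny3 stood at -0.99 ± 0.16.

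Rn7sk, the RNA held by Larp7, was abundant in both groups and only slightly lower, at 13.2 ± 0.048 in the pulldown and 13.7 ± 0.013 in the input (SD, n = 3), a difference of -0.43 ± 0.033 (limma adjusted p = 1.7e-05). With its protein partners in the 7SK particle 4 of 7 were higher, 2 lower and 1 not past, beside 31.3% and 17.3% of all genes. The median of 0.09 is close to the 0.04 of all genes. The cyclins Ccnt2 and Ccnt1, which pair with Cdk9 to form P-TEFb, were higher by 0.31 ± 0.032 and 0.31 ± 0.037, and the inhibitor Hexim1 by 0.28 ± 0.055, while its paralog Hexim2 was lower, at -0.24 ± 0.042. Cdk9 did not pass, at -0.05 ± 0.040. The capping enzyme Mepce was called higher at 0.09 ± 0.026 but stood at -0.02 after cyclic loess.

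Factors of U6 snRNA maturation, in which Larp7 also takes part, gave 1 of 11 higher, 8 lower and 2 not past, beside 31.3% and 17.3% of all genes, with a median of -0.65. Among them Lsm8, the subunit particular to the nuclear Lsm ring, had a difference of -1.33 ± 0.080 and Lsm7 -1.20 ± 0.027. The higher member was Sart3, a U6 recycling factor, at 0.38 ± 0.071. Among the lower calls Tut1, at -0.13 ± 0.046, was near the threshold (limma adjusted p = 0.0499). Lsm5, also called lower, lay below the median of all values in both groups. The lower calls numbered 7 with an intensity trend, 7 to 8 with an array left out and 9 after cyclic loess. The RNA polymerase III machinery that makes the ligands of La gave 13 of 27 higher, 9 lower and 5 not past, beside 31.3% of all genes higher and 17.3% lower, with a median of 0.02 against 0.04 over all genes. All 27 lay above the median of all values in either group. In the fit of such genes 13 were higher and 10 lower, beside 5754 and 3382 of 12162, so the list was near that background. After cyclic loess 10 were higher and 11 lower, beside 25.7% and 22.9% of all genes, with a median of -0.09. The higher members included Bdp1 (1.19 ± 0.051) and Gtf3c1 (0.87 ± 0.031), large subunits of the initiation factors TFIIIB and TFIIIC, and the lower ones the shared subunits Polr1c (-0.90 ± 0.090) and Polr1d (-0.81 ± 0.042) and Gtf3a (-0.76 ± 0.030), the factor of 5S RNA genes. Of 5 proteins that share RNA ligands with La or act on tRNA, 3 were higher, 0 lower and 2 not past, beside 31.3% and 17.3% of all genes, with a median of 0.34. The tRNA exporter Xpot was higher by 0.84 ± 0.031 and Ro60, the protein that binds Y RNAs together with La, by 0.69 ± 0.037. After cyclic loess 3 were higher and 1, the tRNA 3′ processing enzyme Elac2, was lower.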

How the data were processed

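The authors deposited a table of log2 values with a row for each probe set and a column for each array. The submitters' processing notes name RMA and limma, without versions. Of 35556 probe sets 21789 had 1 gene symbol in the platform's annotation, 1621 several and 12146 none listed. Only those with 1 symbol were named, and the brightest over 6 arrays stood for a gene, which left 19938 genes. Symbols were updated through Entrez identifiers, of which 19856 matched. Differences came from limma 3.58.1 in R 4.3.3 (2-sided, no covariates), fitted on all genes. The fit was also run on simulated data with far fewer changed genes than were called here, so that run does not bear on these calls. The number of arrays limits the precision; the median SE of a difference was 0.039. The members and lists were chosen with earlier results of these data known. All 7 members, the genes most alike to them (5 for Larp1 and 2 for each other member, without predicted genes, microRNAs and small nucleolar RNAs), and members of the lists, first the 3 with the smallest adjusted p, were eligible to be named. Lists were described by counts and medians, without a set test. The labels do not say that replicate numbers pair the samples, so no pairing was used. Correlations of same-numbered samples' deviations from their group means were 0.024, 0.11 and -0.060. These are deviations within small groups and cannot settle whether such samples shared a source. Alternatives were a replicate block, an intensity trend, cyclic loess, centring on probe sets above their 75th percentile, a filter on dim genes, the mean of probe sets, other probe sets and leaving out each array.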

Additional observations from a re-analysis of the deposited data

How the results depend on the processing

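All 7 members kept a positive difference under every alternative run, and 6 were called higher in each, except for 5 after cyclic loess and when pulldown array 2 or 3 or input array 1 or 3 was left out. The lost call was that of Ssb, at 0.050 after cyclic loess and 0.12 to 0.20 over the 6 fits without 1 array. After cyclic loess Larp7 stood at 0.14 and Larp6 at 0.06. The other probe set of Larp1b, at 0.17, was not called. Ranges with 1 array left out were 1.58 to 1.67 for Larp1, 0.77 to 0.81 for Larp4, 0.67 to 0.74 for Larp4b, 0.48 to 0.54 for Larp1b, 0.20 to 0.27 for Larp7 and 0.07 to 0.17 for Larp6. With the replicate block, whose numbers are not stated to pair the samples, 6 members were called, and 6247 genes were higher and 3467 lower, against 6246 and 3459 without it. The filter on dim genes raised the share of genes called to 75.1% of the 12162 genes it kept. With 1 array left out, 5654 to 5931 genes were called higher and 3193 to 3357 lower. The number of arrays, and signal near background for Rny1, Vaultrc5, Rnu6 and the second Larp1b probe set, limit these values.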
